A study of Mus musculus with 6 samples.

Results

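The genes described here are 52 members of the TGF-beta and BMP pathways: 13 ligands, 5 proteins of latency and processing, 12 receptors and co-receptors, 8 antagonists, 7 SMADs, 4 Id proteins and 3 nuclear corepressors. They were chosen by name, with earlier results of these data known. Each was read from its probe set, which was the single one annotated to it for all 52. Of these, 50 were among the 17145 genes tested, and in all 50 both groups had a mean above 3.0 on the log2 scale, the level below which the study's methods treat intensity as background. Bmp2 and Bmpr1b were not tested, with means of 2.63 and 2.62 in 8KR cells and 2.72 and 2.64 in wild type cells. All cells were NIH/3T3, an immortalized line of mouse fibroblasts, stably transfected with mouse RPB1, the largest polymerase II subunit, carrying an HA tag. In 8KR cells, arginine replaced every lysine at the last position of the repeats in the RPB1 tail, so that these sites cannot be acetylated, and in wild type cells the introduced RPB1 was unchanged. Both kinds of cells grew with α-amanitin, an inhibitor of the polymerase, at 2 µg/ml in medium that held 10% calf serum. Total RNA of 3 8KR cultures and 3 wild type cultures was read on 1 Affymetrix Mouse Gene 1.0 ST array each. The paper calls them biological replicates, and the sources do not say whether each group came from 1 transfected population, so p-values measure only the spread between these cultures. Sample names carry a letter and a running number that differ between the groups, with no meaning stated, so a batch in handling, if there was one, and the group cannot be told apart.

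Cells secrete TGF-beta in a latent form that is held in the matrix by latent TGF-beta binding proteins, the Ltbp family. Once released, TGF-beta and activins act through type I and type II receptor kinases that phosphorylate Smad2 and Smad3, whereas BMPs act through related receptors that phosphorylate Smad1 and Smad5, and Smad4 joins both branches. Soluble antagonists such as gremlin, noggin and chordin bind BMPs, follistatin binds activins, and inside the cell Smad6, Smad7, Ski, Skil and Tgif1 restrain the signal. In fibroblasts, TGF-beta is known for the induction of matrix genes, and BMPs for the induction of the Id genes.

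Median log2 intensities lay between 4.53 and 4.54 on the 8KR arrays and between 4.49 and 4.52 on the wild type arrays, and arrays of the same group correlated over tested probe sets at 0.982 to 0.984, against 0.975 to 0.978 for arrays of different groups. Polr2a, the gene of RPB1, averaged 12.13 ± 0.01 in 8KR cells and 12.10 ± 0.01 in wild type cells (SD, n = 3 each), and the labels do not say how far its probe set reads the introduced copy. All 10 fibroblast markers examined lay above the median of the 6 array medians, with means of 6.56 to 12.0. Neither the 6 endothelial nor the 5 leukocyte markers on the array did, although the leukocyte marker Cd3e came close, at a mean of 4.52. By contrast, 3 of 6 epithelial and 4 of 6 skeletal muscle markers lay above it, at means of up to 5.85 and 5.98. The summed log2 levels of the fibroblast markers ranged from 94.2 to 94.3 on 8KR arrays and from 95.9 to 97.1 on wild type arrays. Those of the skeletal muscle markers were also lower, at 26.4 to 26.8 on 8KR arrays and 27.4 to 27.8 on wild type arrays. The sums of the epithelial, endothelial and leukocyte markers overlapped between the groups. Of the 10 fibroblast markers, 2 fell at an adjusted p under 0.05 from limma, Col3a1 and Pdgfra, beside 3.06% of all tested genes. The part of these differences in the results below was not tested. The array reads a whole culture, in which fewer cells of a type and less RNA per cell cannot be told apart.

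Of these pathway genes, 11 changed in 8KR cells, and none of them was a ligand. Bmp1, Ltbp1, Bmpr1a, Bambi, Smad7 and Tgif1 rose, and Ltbp2, Ltbp3, Tgfbr3, Grem1 and Id2 fell, at an adjusted p under 0.05 from limma (8KR minus wild type, Benjamini-Hochberg over all probe sets tested). These 11 of 50 genes are 22% of those tested, beside 5.39% of all tested genes. Because the members were chosen with earlier results of these data known, the shares given here describe the list and test nothing. By direction, 6 of 50 rose and 5 fell, beside 2.33% and 3.06% of all tested genes. Brighter genes passed more often on these arrays. Among genes with a mean over 5 on the log2 scale, 11 of 34 members passed, beside 8.66% of all such genes, and of the 16 dimmer members none passed, beside 1.21% of all dimmer genes. At an unadjusted p under 0.05 stood 19 of the 50 members, or 38%, beside 21.8% of all tested genes, and 1 of these, Ltbp4, was a dimmer member. Over all 50 members the median log2 difference was 0.04, beside 0.01 over all tested genes. The arrays of the groups did not overlap for 24 of the 50 members, with 8KR above wild type in 15 and below it in 9, beside 29.7% of all tested genes.

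**Figure D1:**
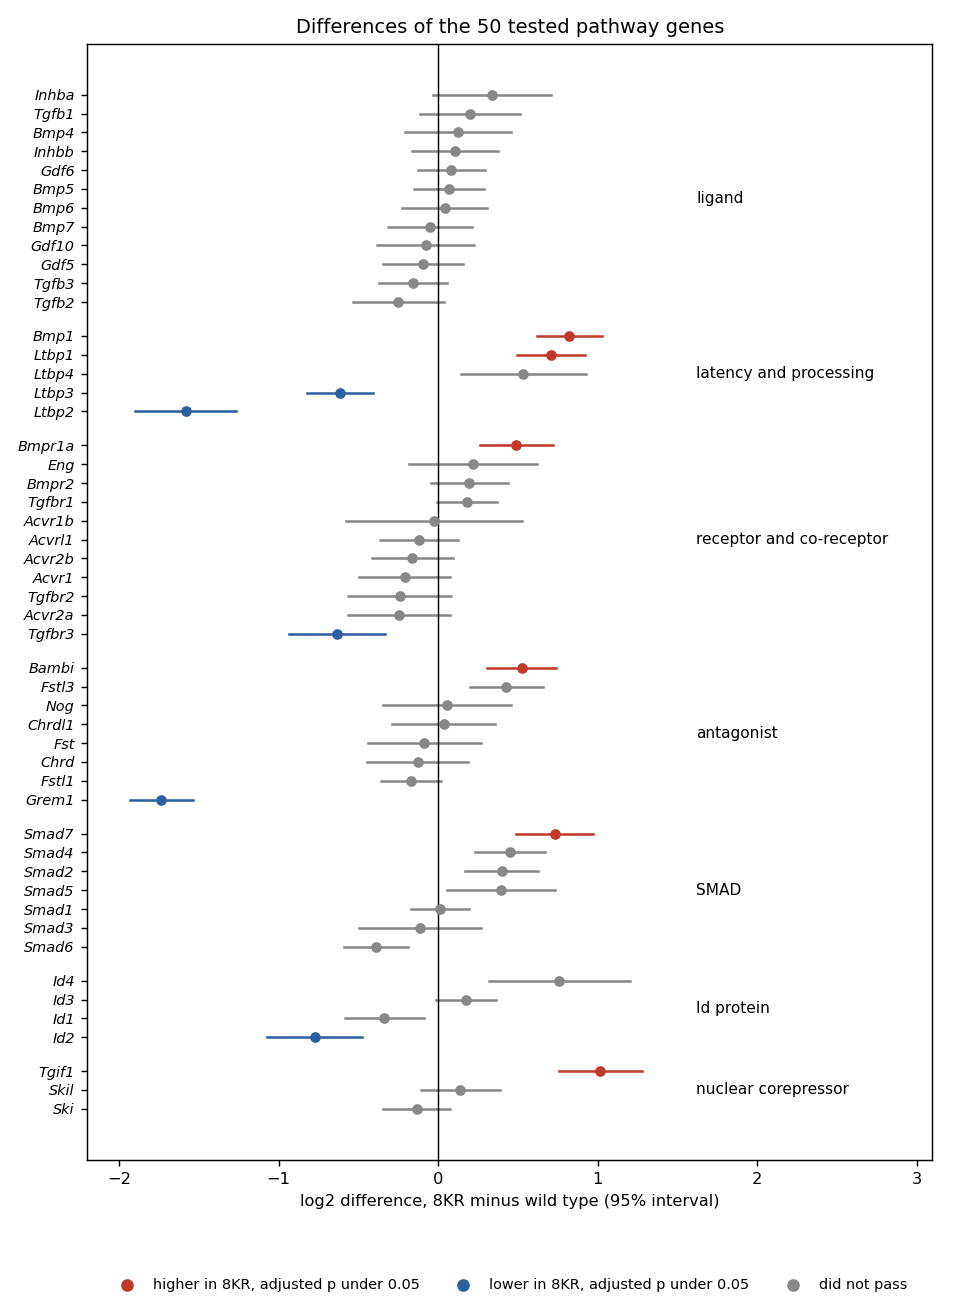
Log2 difference, 8KR minus wild type (horizontal axis), of the 50 tested genes grouped by role, with 1 point per gene and the 95% interval from limma as a line; red and blue mark genes that passed higher and lower in 8KR cells. Grem1 (-1.74) and Ltbp2 (-1.58) lie farthest to the left and Tgif1 (1.02) farthest to the right, and the intervals of all 12 ligands cross 0.

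Leaving out 1 array bore heavily on the calls. Grem1, Ltbp2, Bmp1 and Tgif1 passed whichever of the 6 arrays was left out. Without each array in turn, 4 to 5 members passed in place of 11, and 274 to 293 of all tested genes in place of 924. The other 7 called genes kept their direction without each array, and their adjusted p is given with each below.

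The promoters of Grem1, Ltbp2, Ltbp3, Id2 and Bmpr1a are shown because these 5 called genes have a single start in the RefSeq table of GRCm38.p6, whereas Tgif1 has 5 and Ltbp1 has 2. No promoter entry was found for the other called genes, Bmp1, Tgfbr3, Bambi and Smad7. Of the 5 shown, only Bmpr1a rose. Each sequence holds the 250 bases before the start, 5′ to 3′ on the strand of the gene. Capitals mark CAGAC, part of the box that SMAD3 and SMAD4 can bind, and GGCGC, part of the GC-rich sites described for BMP-activated SMADs, each on both strands. A GGCGCC counts as 2 overlapping matches, 1 on each strand.
Grem1, chr2:113758649-113758898, minus strand: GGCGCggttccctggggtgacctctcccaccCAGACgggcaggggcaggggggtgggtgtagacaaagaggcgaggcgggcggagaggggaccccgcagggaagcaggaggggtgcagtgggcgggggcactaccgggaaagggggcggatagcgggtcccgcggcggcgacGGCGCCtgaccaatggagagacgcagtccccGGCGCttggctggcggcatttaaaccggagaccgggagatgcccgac
Ltbp2, chr12:84876492-84876741, minus strand: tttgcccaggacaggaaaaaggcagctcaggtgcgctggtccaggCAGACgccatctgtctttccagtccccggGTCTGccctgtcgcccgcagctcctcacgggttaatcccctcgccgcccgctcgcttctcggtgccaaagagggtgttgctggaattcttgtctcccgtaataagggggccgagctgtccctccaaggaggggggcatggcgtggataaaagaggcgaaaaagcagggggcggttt
Ltbp3, chr19:5740650-5740899, plus strand: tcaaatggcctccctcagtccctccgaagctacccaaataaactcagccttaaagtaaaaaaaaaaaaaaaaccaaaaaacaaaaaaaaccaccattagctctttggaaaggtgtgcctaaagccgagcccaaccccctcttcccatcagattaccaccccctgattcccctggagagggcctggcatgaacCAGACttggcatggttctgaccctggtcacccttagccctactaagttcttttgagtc
Id2, chr12:25096093-25096342, minus strand: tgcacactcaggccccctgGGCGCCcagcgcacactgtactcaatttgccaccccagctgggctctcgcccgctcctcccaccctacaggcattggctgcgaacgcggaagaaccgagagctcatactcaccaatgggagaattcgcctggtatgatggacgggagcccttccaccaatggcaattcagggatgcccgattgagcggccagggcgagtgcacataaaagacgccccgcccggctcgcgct
Bmpr1a, chr14:34502547-34502796, minus strand: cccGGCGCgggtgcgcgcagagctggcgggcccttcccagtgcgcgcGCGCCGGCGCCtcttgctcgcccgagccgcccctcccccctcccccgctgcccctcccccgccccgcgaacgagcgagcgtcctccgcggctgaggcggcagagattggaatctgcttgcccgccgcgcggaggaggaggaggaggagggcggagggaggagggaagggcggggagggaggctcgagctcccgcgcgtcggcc
The Ltbp2 promoter held 2 CAGAC matches, those of Grem1 and Ltbp3 held 1 each, and those of Id2 and Bmpr1a held 0. GGCGC was found 4 times in Grem1, 4 times in Bmpr1a, 2 times in Id2 and 0 times in Ltbp2 and Ltbp3. Of all 32851 promoter windows of this length, 42.2% held CAGAC and 32.0% held GGCGC. G and C made up 72.0% of the window in Grem1, 61.6% in Ltbp2, 47.2% in Ltbp3, 62.8% in Id2 and 78.8% in Bmpr1a, beside a median of 52.4% over all windows. Neither motif was found in all 4 windows of genes that fell, and a match is a description of letters only.

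No ligand passed the test. Of 13 ligands, 12 were tested, and their log2 differences ran from -0.25 to 0.34. None passed at the adjusted threshold or at an unadjusted p under 0.05, beside 5.39% and 21.8% of all tested genes. Only 4 of the 12 had a mean over 5, and of all genes 8.66% of those with such a mean passed and 1.21% of the dimmer ones. The groups did not overlap for 1 of the 12, beside 29.7% of all tested genes. Inhba, which encodes the activin A subunit, read 7.93, 7.80 and 7.54 on the 8KR arrays and 7.28, 7.31 and 7.67 on the wild type arrays. The groups overlapped through wild type replicate 3, and the log2 difference was 0.34 (standard error 0.15, adjusted p = 0.298). Tgfb1, a TGF-beta ligand, read 6.67, 7.04 and 6.71 in 8KR cells and 6.47, 6.68 and 6.67 in wild type cells. Its difference of 0.20 had a 95% interval of -0.11 to 0.51 and therefore included 0. Tgfb2 read 5.53, 5.28 and 5.31 in 8KR cells and 5.47, 5.78 and 5.62 in wild type cells (log2 difference -0.25, 95% interval -0.53 to 0.03). Tgfb3 was the 1 ligand without overlap, at 5.84 to 5.94 in 8KR cells and 5.98 to 6.18 in wild type cells, and its difference of -0.16 did not pass (adjusted p = 0.387). The remaining 8, genes of bone morphogenetic proteins, their growth and differentiation factor relatives and the activin B subunit, were Bmp4, Bmp5, Bmp6, Bmp7, Gdf5, Gdf6, Gdf10 and Inhbb. They had means over all arrays of 3.09 to 4.28, below every array's median, and differences of -0.09 to 0.12. Their 95% intervals all included 0.

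Of the 5 genes of latency and processing, 4 changed, in opposite directions, beside 5.39% of all tested genes. A mean over 5 was found for 4 of the 5, and 8.66% of all genes with such a mean passed. In all 5 the groups did not overlap, as in 29.7% of all tested genes, and 2 rose, 2 fell and 1 did not pass. Ltbp2, a matrix protein of the family that unlike its relatives does not bind latent TGF-beta, read 5.08, 4.82 and 5.18 on the 8KR arrays and 6.44, 6.74 and 6.65 on the wild type arrays. The lowest wild type array lay far above the highest 8KR array, and the level was 3.00-fold lower in 8KR cells (log2 difference -1.58, standard error 0.13, adjusted p = 0.00435). Without each array in turn the adjusted p was 0.0196 to 0.0286. Ltbp3, which binds latent TGF-beta, read 7.79, 7.83 and 7.88 in 8KR cells and 8.57, 8.43 and 8.35 in wild type cells. It fell by 0.62 on the log2 scale (standard error 0.09, adjusted p = 0.0197), and did not pass whichever array was left out (adjusted p = 0.0509 to 0.0776). Ltbp1, which also binds latent TGF-beta, went the other way, at 8.23, 8.14 and 8.17 in 8KR cells and 7.51, 7.56 and 7.34 in wild type cells. This 1.63-fold rise (log2 difference 0.71, standard error 0.09, adjusted p = 0.0142) passed without wild type replicate 2 or 3 and did not pass without wild type replicate 1 or any 8KR array (adjusted p = 0.0440 to 0.0619 over the 6). Ltbp4 read 5.16, 4.65 and 4.99 in 8KR cells and 4.52, 4.49 and 4.19 in wild type cells, a log2 difference of 0.53 that did not pass (standard error 0.16, adjusted p = 0.139). Bmp1, a protease that cleaves procollagens, chordin and latent TGF-beta binding proteins, and not a BMP ligand in spite of its name, read 7.43, 7.23 and 7.38 in 8KR cells and 6.56, 6.47 and 6.54 in wild type cells. It was 1.77-fold higher in 8KR cells (log2 difference 0.82, standard error 0.08, adjusted p = 0.00810), with an adjusted p of 0.0281 to 0.0442 without each array in turn.

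**Figure D2:**
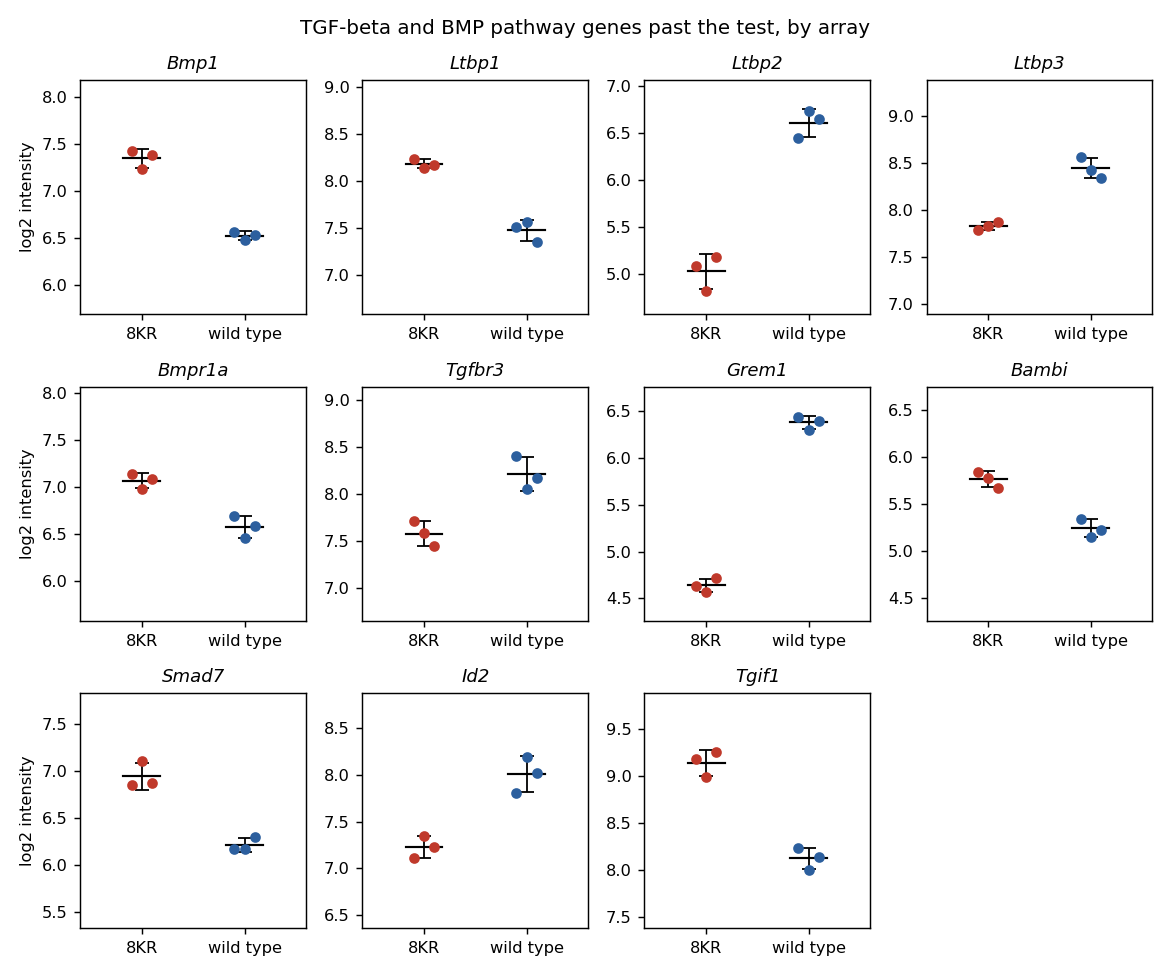
Log2 intensity (vertical axis, 2.5 units in every panel) of the 11 genes that passed, with 1 point per array, 8KR in red and wild type in blue, a horizontal line at the mean and a bar for the SD. In every panel the 3 8KR arrays lie on one side of the 3 wild type arrays, by the widest margin in Grem1 (4.64 ± 0.07 against 6.38 ± 0.07) and Ltbp2 (5.03 ± 0.19 against 6.61 ± 0.15).

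Among the 11 receptors and co-receptors tested 1 rose and 1 fell, beside 2.33% and 3.06% of all tested genes. Bmpr1a, a type I receptor for BMPs, read 7.13, 6.97 and 7.09 on the 8KR arrays and 6.69, 6.45 and 6.58 on the wild type arrays, and was 1.41-fold higher in 8KR cells (log2 difference 0.49, standard error 0.09, adjusted p = 0.0462). Tgfbr3, or betaglycan, a co-receptor that presents TGF-beta to its signaling receptors, read 7.71, 7.59 and 7.45 in 8KR cells and 8.41, 8.06 and 8.18 in wild type cells, and fell by 0.63 on the log2 scale (standard error 0.12, adjusted p = 0.0474). The groups did not overlap in either gene. Both calls sat near the threshold, and neither gene passed with any of the 6 arrays left out (adjusted p = 0.0807 to 0.138 for Bmpr1a and 0.0825 to 0.133 for Tgfbr3). The signaling receptors of TGF-beta itself did not pass. Tgfbr1, the type I receptor, read 6.29, 6.30 and 6.25 in 8KR cells and 6.02, 6.19 and 6.08 in wild type cells, without overlap (log2 difference 0.18, 95% interval -0.01 to 0.37). Tgfbr2, the type II receptor, read 6.66, 6.72 and 6.62 in 8KR cells and 7.13, 6.65 and 6.94 in wild type cells (log2 difference -0.24, 95% interval -0.56 to 0.08), and wild type replicate 2 lay among the 8KR arrays. Bmpr2, the type II BMP receptor, had a log2 difference of 0.19 (adjusted p = 0.349) without overlap between groups, and the activin receptor gene Acvr2a had -0.24 (adjusted p = 0.378) with overlap. The groups overlapped for the other 5, the type I receptor genes Acvr1, Acvr1b and Acvrl1, the type II activin receptor gene Acvr2b and Eng, or endoglin, a co-receptor known from endothelium, and over all 9 receptors that did not pass the differences lay between -0.24 and 0.22. Acvr1b varied most among wild type arrays, at 5.01, 5.53 and 4.66.

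Grem1 showed the largest fall and Bambi a rise among the 8 antagonists, of which 6 did not pass. Of all tested genes 5.39% passed. Grem1, which encodes gremlin, a secreted antagonist of BMPs, read 4.63, 4.57 and 4.71 on the 8KR arrays and 6.44, 6.30 and 6.39 on the wild type arrays. It was 3.33-fold lower in 8KR cells (log2 difference -1.74, standard error 0.08, adjusted p = 7.69e-04) and stood at place 16 of the 17145 genes when ranked by p. Its adjusted p was 0.00654 to 0.0101 without each array in turn. The 8KR level was close to the array medians. Bambi, a decoy receptor that lacks a kinase domain, read 5.84, 5.78 and 5.67 in 8KR cells and 5.34, 5.15 and 5.23 in wild type cells, a 1.44-fold rise (log2 difference 0.52, standard error 0.09, adjusted p = 0.0333). Bambi did not pass whichever array was left out (adjusted p = 0.0704 to 0.111). Fstl3, a follistatin-like protein that binds activin, read 8.18, 8.23 and 7.99 in 8KR cells and 7.77, 7.63 and 7.72 in wild type cells. The groups did not overlap, and the log2 difference of 0.43 did not pass (standard error 0.09, adjusted p = 0.0667). Fstl1, a secreted glycoprotein of the same family, read 10.04, 9.91 and 10.04 in 8KR cells and 10.21, 10.15 and 10.13 in wild type cells, also without overlap (log2 difference -0.17, adjusted p = 0.298). The BMP antagonist genes Chrd, Nog and Chrdl1 and the activin antagonist gene Fst had overlapping groups and differences of -0.13, 0.05, 0.03 and -0.09.

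Of the 7 SMAD genes, all with a mean over 5, Smad7 rose and 6 did not pass. Of all tested genes 5.39% passed, and 8.66% of those with such a mean. Smad7, an inhibitory SMAD that TGF-beta itself induces, read 6.85, 7.11 and 6.87 on the 8KR arrays and 6.17, 6.17 and 6.30 on the wild type arrays, and was 1.66-fold higher in 8KR cells (log2 difference 0.73, standard error 0.10, adjusted p = 0.0184). Smad7 did not pass whichever array was left out (adjusted p = 0.0543 to 0.0742). Smad6, the inhibitory SMAD of the BMP branch, lay the other way, at 5.54, 5.67 and 5.57 in 8KR cells and 5.89, 6.01 and 6.06 in wild type cells, a log2 difference of -0.39 that did not pass (standard error 0.08, adjusted p = 0.0613). Smad4, shared by both branches, read 7.95, 7.99 and 7.94 in 8KR cells and 7.41, 7.66 and 7.46 in wild type cells (log2 difference 0.45, standard error 0.09, adjusted p = 0.0523). Smad2, which carries TGF-beta and activin signals, read 6.98 to 7.08 in 8KR cells and 6.51 to 6.77 in wild type cells (log2 difference 0.40, standard error 0.09, adjusted p = 0.0772). In these 3 genes the groups did not overlap, as in 29.7% of all tested genes, although none passed. Where genes with no group mean above 5.0 were left out, they passed, as did 17.6% of all genes then tested. The adjusted p was then 0.0193 for Smad4, 0.0323 for Smad2 and 0.0224 for Smad6. With the filter at 3.0, none of them passed whichever array was left out (adjusted p = 0.0632 to 0.153 for Smad4, 0.0807 to 0.198 for Smad2 and 0.103 to 0.170 for Smad6). Smad5, a BMP-branch SMAD, read 6.47, 6.31 and 6.53 in 8KR cells and 6.20, 6.16 and 5.77 in wild type cells, again without overlap (log2 difference 0.39, adjusted p = 0.194). Smad1 and Smad3, the close relatives of Smad5 and Smad2, had overlapping groups, with a difference of 0.01 (95% interval -0.17 to 0.19) for Smad1 and of -0.11 (95% interval -0.49 to 0.27) for Smad3.

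**Figure D3:**
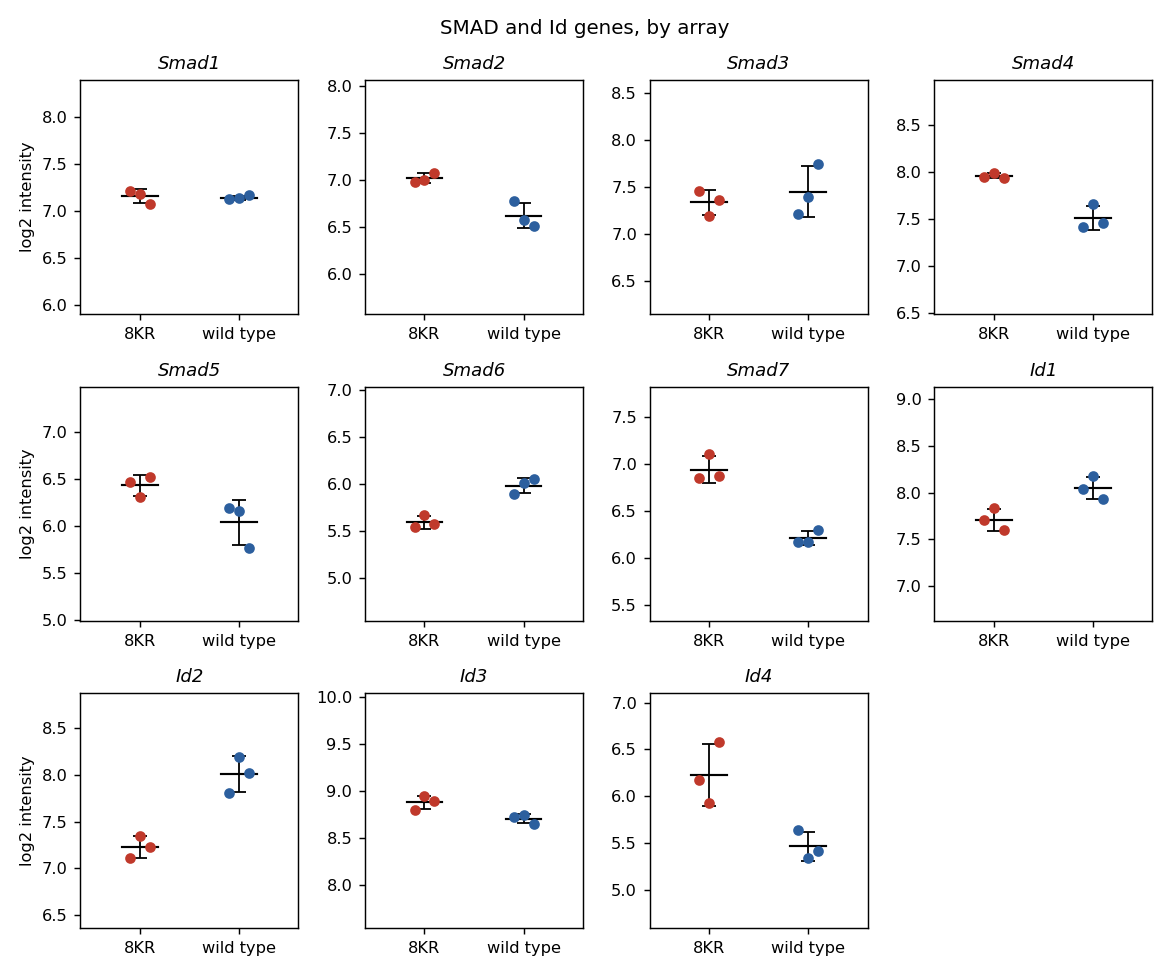
Log2 intensity (vertical axis, 2.5 units in every panel) of the 7 SMAD and 4 Id genes, with 1 point per array, 8KR in red and wild type in blue, a horizontal line at the mean and a bar for the SD. Smad7 is higher and Id2 lower on all 8KR arrays, the groups overlap in Smad1 and Smad3, and Id4 is spread from 5.93 to 6.58 among 8KR arrays.

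The 4 Id genes, whose proteins bind and block basic helix-loop-helix transcription factors and which BMPs induce, lay on both sides of 0. In each of them the groups did not overlap, as in 29.7% of all tested genes. In 8KR cells 2 lay higher and 2 lower, but only Id2 passed, beside 5.39% of all tested genes. Id2 read 7.11, 7.35 and 7.23 on the 8KR arrays and 7.81, 8.19 and 8.01 on the wild type arrays, and fell by 0.77 on the log2 scale (standard error 0.12, adjusted p = 0.0280), a level 1.71-fold lower. It passed without wild type replicate 1 and did not pass without wild type replicate 2 or 3 or any 8KR array (adjusted p = 0.0491 to 0.0960 over the 6). Id1 read 7.71, 7.83 and 7.60 in 8KR cells and 8.04, 8.17 and 7.93 in wild type cells (log2 difference -0.34, standard error 0.10, adjusted p = 0.141). Id3 read 8.80, 8.94 and 8.89 in 8KR cells and 8.72, 8.74 and 8.65 in wild type cells (log2 difference 0.17, adjusted p = 0.287). Id4 read 6.17, 5.93 and 6.58 in 8KR cells and 5.64, 5.35 and 5.42 in wild type cells. Its difference of 0.76 was almost as large as that of Id2, but its 8KR arrays were spread more widely (SD 0.33, n = 3), and it did not pass (standard error 0.18, adjusted p = 0.0796).

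Among the 3 corepressors 1 rose, beside 2.33% of all tested genes. It was Tgif1, with the largest rise of any of the 50 genes. Tgif1, a homeodomain protein that represses SMAD2 and SMAD3 targets, read 9.18, 8.98 and 9.25 on the 8KR arrays and 8.23, 8.00 and 8.13 on the wild type arrays. It was 2.02-fold higher in 8KR cells (log2 difference 1.02, standard error 0.11, adjusted p = 0.00851), with an adjusted p of 0.0272 to 0.0454 without each array in turn. Ski and Skil, related corepressors that bind SMADs, had overlapping groups. Ski read 7.33, 7.23 and 7.35 in 8KR cells and 7.35, 7.41 and 7.55 in wild type cells (log2 difference -0.14, adjusted p = 0.458). Skil read 6.28, 6.23 and 6.16 in 8KR cells and 6.25, 6.05 and 5.94 in wild type cells (log2 difference 0.14, adjusted p = 0.519).

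The called genes lay on chromosomes 2, 5, 12, 14, 17, 18 and 19. Ltbp2 and Id2 shared chromosome 12, Bmp1 and Bmpr1a chromosome 14, Ltbp1 and Tgif1 chromosome 17, and Bambi and Smad7 chromosome 18. Of the 107 tested genes that stood up to 5 places to either side of the called genes in RefSeq order, 5 passed, or 4.67%, beside 5.39% of all tested genes. Over single-symbol probe sets alone 13 of the 107 passed, beside 9.55% of all genes, so which share was larger depended on the setting. None of the 10 neighbours of Grem1, Ltbp2, Ltbp3, Tgfbr3, Tgif1 or Bmpr1a passed. Nor did any of the 7 of Bambi. Next to Ltbp2, D030025P21Rik had a log2 difference of -0.99 and lay at the threshold (adjusted p = 0.0517), with an adjusted p of 0.0138 to 0.147 over the 17 alternatives, 6 of which put it under 0.05. The neighbours that passed, named after their values were seen, were Crim1 (0.89) and Fez2 (0.71) beside Ltbp1, Polr3d (0.69) beside Bmp1, Scarna17 (0.73) beside Smad7 and Rnf144a (0.85) beside Id2, and all 5 rose, that of Id2 where Id2 fell. Crim1 and Scarna17 passed whichever array was left out, Fez2 did not without wild type replicate 1 (adjusted p = 0.0511), and Polr3d and Rnf144a did not with any array left out (adjusted p = 0.0553 to 0.129 for Polr3d and 0.0799 to 0.115 for Rnf144a). Smad7 and Smad2 lie 4 tested genes apart on chromosome 18, and the 10 neighbours of Smad7, Smad2 among them, had a median log2 difference of 0.26 with 7 of them above 0. Of the neighbours of the other genes that rose, 8 of 10 lay above 0 for Bmpr1a, 7 of 10 for Bmp1, 7 of 10 for Ltbp1, 6 of 7 for Bambi and 2 of 10 for Tgif1. For the genes that fell it was 4 of 10 each for Grem1, Ltbp2, Ltbp3 and Tgfbr3, and 5 of 10 for Id2. Among members that did not pass it ran from 1 of 10 for Smad6 to 10 of 10 for Inhbb. Of all 17145 tested genes, 8876 lay above 0. Whether called genes and their neighbours shifted together was not tested.

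**Figure D4:**
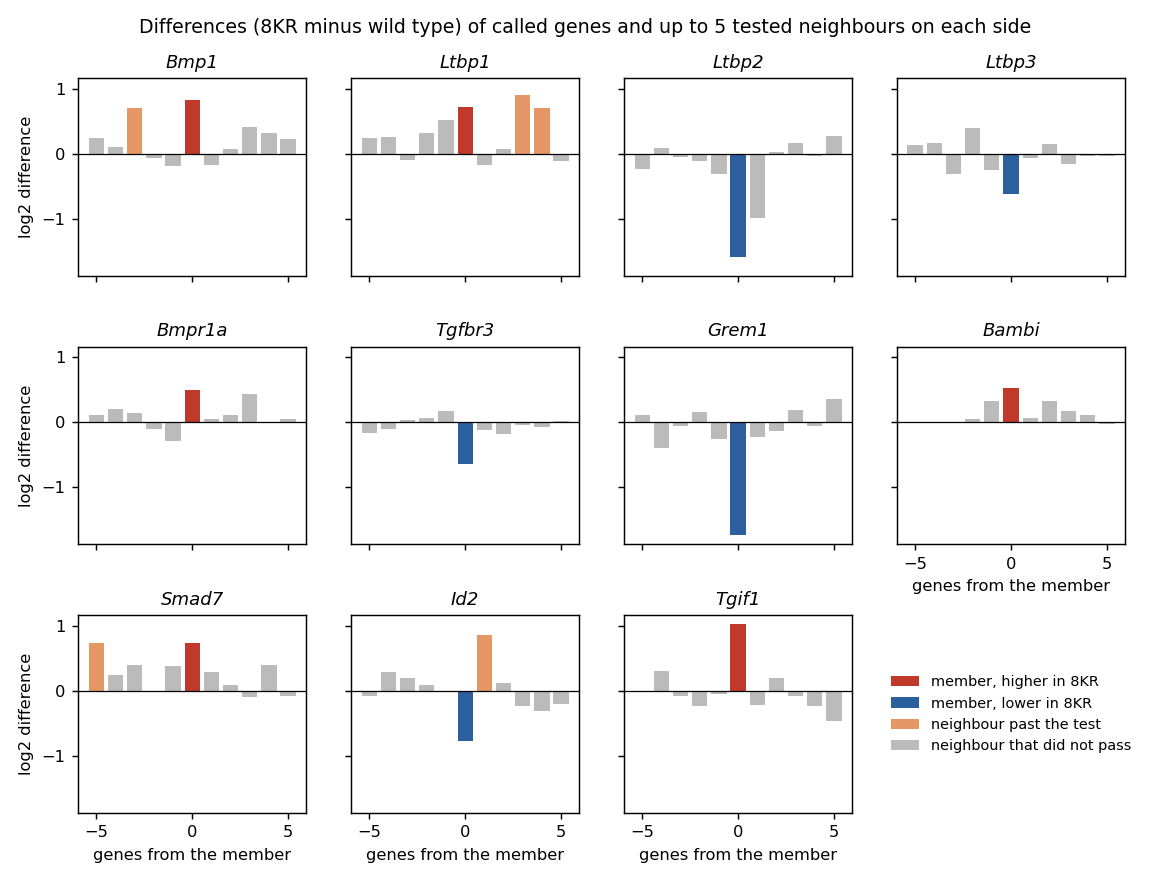
Log2 difference, 8KR minus wild type (vertical axis), of each of the 11 called genes at position 0 and of the tested genes up to 5 places to either side in RefSeq gene order (horizontal axis); orange marks neighbours that passed. Grem1 (-1.74) and Tgif1 (1.02) stand apart from their neighbours, none of which passed.

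Of 116 further ligands, receptors, regulators and response genes, 99 were tested, 60 of them with a mean over 5, and 4 rose and 5 fell, beside 5.39% of all tested genes and 8.66% of those with a mean over 5. Of 14 further ligands and 18 further intracellular regulators tested, none passed. An unadjusted p under 0.05 was found for 1 of the 14 and 2 of the 18, beside 21.8% of all tested genes. It was found for 8 of 25 further extracellular regulators, 3 of 8 further receptors and co-receptors and 28 of all 99 genes. Among 25 further extracellular regulators, Thbs1, a matricellular protein that activates latent TGF-beta, rose by 1.05 on the log2 scale (adjusted p = 0.00338), and Crim1, a membrane protein that binds BMPs, rose by 0.89 (adjusted p = 0.00366). Dcn, a proteoglycan that binds TGF-beta, fell by 3.37 (adjusted p = 4.68e-04), and Emilin1, an elastic fibre protein that hinders the processing of TGF-beta, fell by 0.84 (adjusted p = 0.00721). Crim1 read 9.33, 9.28 and 9.33 on the 8KR arrays and 8.42, 8.38 and 8.47 on the wild type arrays, and Emilin1 read 5.63, 5.56 and 5.50 on the 8KR arrays and 6.39, 6.33 and 6.50 on the wild type arrays. In both genes the groups lay far apart. Thbs1, Crim1, Dcn and Emilin1 passed whichever array was left out. Of 8 further receptors and co-receptors, Vasn, a membrane protein that binds TGF-beta, fell by 0.40 (adjusted p = 0.0356), and 7 did not pass. The call of Vasn was lost whichever array was left out (adjusted p = 0.0993 to 0.114).

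Response genes that passed went in both directions. Of 21 TGF-beta response genes tested, Postn, a matricellular protein, rose by 1.98 on the log2 scale (adjusted p = 0.00372), whereas the collagen gene Col3a1 fell by 0.52 (adjusted p = 0.0364) and Ccn2, or connective tissue growth factor, fell by 0.48 (adjusted p = 0.0466). Ccn2 read 9.78, 9.80 and 9.61 in 8KR cells and 10.31, 10.19 and 10.13 in wild type cells, without overlap. Postn passed whichever array was left out, and Col3a1 and Ccn2 did not pass with any of them left out (adjusted p = 0.0731 to 0.112 for Col3a1 and 0.101 to 0.128 for Ccn2). The other 18 did not pass. The list had a median log2 difference of -0.12 with 8 of 21 above 0, beside a median of 0.01 over all tested genes. At an unadjusted p under 0.05 stood 10 of the 21, most of them lower in 8KR cells, beside 21.8% of all tested genes. Of 13 BMP response genes outside the Id and SMAD families, Smoc2, a matrix glycoprotein, rose by 0.85 (adjusted p = 0.0199), at 7.01, 6.66 and 6.65 in 8KR cells and 5.91, 5.90 and 5.96 in wild type cells, and 12 did not pass. Smoc2 passed without 8KR replicate 1 and did not pass without 8KR replicate 2 or 3 or any wild type array (adjusted p = 0.0367 to 0.0770 over the 6). The median of that list was 0.03, and 4 of the 13 had an unadjusted p under 0.05. The calls, 3 of 21 and 1 of 13, stand beside 5.39% of all tested genes. The lists were written with earlier results of these data known, and no test of a list was made.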

How the data were processed

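Affymetrix Mouse Gene 1.0 ST arrays of 3 8KR and 3 wild type cultures were analysed, grouped by the genotype and replicate number of their labels. The authors deposited normalized intensities on a log2 scale for every probe set of each array. Their processing notes list Affymetrix Power Tools 1.12.0. How the arrays were normalized, and on which build, is not given in the sources. Following the study's methods, a probe set needed a mean above 3.0 in at least 1 group, as 28543 of 35557 had, and limma 3.58.1 in R 4.3.3 (lmFit, eBayes, two-sided, no covariates, all 6 arrays) was fitted to these with Benjamini-Hochberg adjustment. Symbols came from the platform annotation, updated by Entrez identifier with the RefSeq table of GRCm38.p6, and 21789 probe sets had 1 symbol, 1621 several and 12147 none. For genes with several probe sets, the one brightest on average was used. RefSeq promoters were found for 35 of the 52 members. Every member passing the test was named on every array, with up to 3 further members of each role class by smallest p and the rest by range or value. The array values of Tgfb1, Tgfbr2, Acvr1b and Smad5 go past this rule and were added with their values known. From each further list up to 4 called genes were named. Members and lists were chosen with earlier results of these data known. The fit was tested on simulated data. Alternatives covered the filter, variance model, normalization, array weights, replicate block, probe set choice, threshold and each array left out. Figures were drawn with matplotlib 3.10.9. Arrays give no read depth, and their number limits the precision.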

Additional observations from a re-analysis of the deposited data

How the results depend on the processing

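Over 17 alternatives, all 11 called members kept their direction, and Grem1 was the 1 that passed in all of them, with log2 differences of -1.78 to -1.70. Robust variances, quantile normalization, array weights and the mean of probe sets per gene left all 11 called, no filter left 9, and centring on the median left 10 and added Smad6. With the filter at 5.0, 16 of 34 members passed (10 higher) beside 17.6% of all genes, the median difference of members was 0.0757, and calls numbered 1737 over all genes, 19 among further pathway genes and 16 among neighbours. Over single-symbol probe sets alone, 16 of 50 passed (10 higher) beside 9.55% of all genes, with 1638, 16 and 13 calls. Both of these added Fstl3, Id4, Smad2, Smad4 and Smad6. An intensity trend gave 14 of 50 members beside 8.91% of all genes, adding Fstl3, Id4 and Smad4, with 1528, 18 and 12 calls. Over single-symbol probe sets and with the trend, 13 and 12 of the 107 neighbours passed. Both were larger shares than those of all genes, unlike in the main fit (4.67% beside 5.39%). At an adjusted p under 0.01, 4 members passed, 2 higher and 2 lower, beside 1.22% of all genes, with 210, 5 and 2 calls. Without a filter 3 neighbours passed. The replicate numbers did not pair the arrays (correlations of deviations from the group means -0.01 to 0.01 between arrays of the same number), and with the replicate block 1 member passed, Grem1, with 0 higher and 1 lower, and 63 genes, 1 further pathway gene and 0 neighbours. The block leaves fewer degrees of freedom. Without each array in turn, 4 to 5 members passed, 2 to 3 higher and 2 to 3 lower, with a median of 0.0070 to 0.0820, and 274 to 293 genes, 5 to 6 further pathway genes and 2 to 4 neighbours passed.

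Differences that changed sign belonged to genes that did not pass. Smad1 was at -0.0152 after centring on the median and at -0.0164 to 0.0544 without each array in turn. Without each array in turn, Smad3 ran from -0.232 to 0.0364, Acvr1b from -0.231 to 0.205, Fst from -0.180 to 0.0613, Nog from -0.112 to 0.193 and Chrdl1 from -0.0634 to 0.137. The range was -0.0161 to 0.199 for Bmp4, -0.0376 to 0.0905 for Bmp6, -0.101 to 0.0450 for Bmp7 and -0.153 to 0.0299 for Gdf10. The cause of these changes was not tested.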
